A study of Mus musculus with 6 samples.

Results

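The mitochondrial genome of the mouse (chromosome M of build GRCm38) was followed through the 15 genes whose symbols start with mt- in the deposited normalized table, out of 23525 genes in that table and 53379 in the deposited count table. They are the 13 messenger RNAs of the respiratory chain and the ribosomal RNAs mt-Rnr1 and mt-Rnr2. The 22 transfer RNA genes are not in the normalized table and are described apart. RNA sequencing compared 6 epithelial organoid cultures grown from tumours of KPC mice, a model of pancreatic cancer, on a C57/Bl6 background. All 6 carried KrasLSLG12D/+ and Pdx1-Cre, in which Cre recombinase is driven by the promoter of a pancreatic progenitor factor. The 3 heterozygous cultures were Trp53LSLR172H/+, with 1 mutant and 1 wild-type allele of the tumour suppressor Trp53. The 3 LOH (loss of heterozygosity) cultures were Trp53LSLR172H/-. Each group held 1 library from each of the organoid lines 6, 23 and 34. Each LOH library also has the suffix Nut in its description, which no source used here explains. Whatever it stands for cannot be told apart from the genotype. The labels do not say whether the lines came from separate animals, so the p-values measure the spread between these 6 libraries.

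Mitochondrial DNA is a small circle present in many copies per cell. It is transcribed from both strands into long precursors by the polymerase Polrmt with the factors Tfam and Tfb2m. The precursors are cut, mostly at transfer RNAs that lie between the other genes, and the messenger RNAs are kept stable by Lrpprc and Slirp. Their protein products join many nuclear-encoded subunits in complexes I, III, IV and V, which carry out oxidative phosphorylation. Pancreatic cancer cells depend on both glycolysis and respiration, and p53 is known to act on several genes of mitochondrial metabolism.

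The libraries held 13680458 to 27917277 expected counts, the read numbers that the quantifier assigned to each gene. Transcripts that resemble ribosomal RNA took 9.65% to 20.4% of them in the heterozygous libraries and 19.1% to 24.9% in the LOH libraries (exact permutation test, two-sided, p = 0.2). The targeted gene Trp53 had 77.3, 76.3 and 86.5 CPM, counts scaled to a common library size, in heterozygous lines 6, 23 and 34 and 73.5, 52.5 and 47.4 CPM in LOH lines 6, 23 and 34. Gene counts do not separate its alleles, so they do not check the genotype. All 8 epithelial markers (Epcam, Cdh1, keratins and claudins) were measured, with sums of 5335 to 6181 CPM in the heterozygous and 5255 to 11535 CPM in the LOH libraries. Markers of other cells were low in both groups. The 10 fibroblast markers summed to 0.701 to 3.04 CPM in the heterozygous and 0.838 to 4.61 CPM in the LOH libraries, with Col3a1 at 0. The 9 leukocyte markers found in the table (of 10) summed to 2.0 to 2.54 CPM and 3.26 to 15.0 CPM, with Lyz2 and Tyrobp among those at 0. Sums for the 6 endothelial markers were 0.223 to 0.300 CPM and 0.605 to 2.91 CPM (Emcn at 0), and for the 7 acinar and islet markers found (of 10) 0.501 to 1.19 CPM and 0.652 to 5.40 CPM (Cpb1, Ptf1a and Ins2 at 0).

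For 7 of the messenger RNAs the counts were divided with a near-identical nuclear gene, so the sequences come first. Stretches of mitochondrial DNA have been copied into nuclear chromosomes, and some of these copies are annotated as genes. A search of the transcripts of GENCODE mouse release 21 (build GRCm38) found 17 nuclear genes that matched a mitochondrial messenger or ribosomal RNA over at least 60 bases at 90% identity or more. Of these, 7 were at least 99% identical over the aligned stretch, each to another messenger RNA. All 7 are unprocessed pseudogenes on the minus strand of chr1:24611535-24616197, a block of 4663 bases. In 5 of them (Gm28439, Gm28437, Gm28661, Gm10925 and Gm10222, copies of mt-Nd4, mt-Co3, mt-Co2, mt-Atp6 and mt-Nd4l) the aligned stretch held no mismatch. Within the aligned stretch Gm29216 differed from mt-Co1 at 1 base, A1066T, and Gm28438 from mt-Nd3 at 1 base, T3C. Positions are counted from 1 at the 5′ end of the mitochondrial transcript, and the mitochondrial base is given first. The lines below show both mismatches, in capitals, in the mitochondrial transcript (chrM:6390-6417 and chrM:9459-9485, plus strand) and in its copy (chr1:24616161-24616188 and chr1:24613093-24613119, minus strand).
mt-Co1: ggaAttgttttatccaactcatcccttg
Gm29216: ggaTttgttttatccaactcatcccttg
mt-Nd3: atTaacctgtacactgttatcttcatt
Gm28438: atCaacctgtacactgttatcttcatt
The 3′ ends of mt-Co2 (chrM:7657-7696, plus strand) and its copy (chr1:24614885-24614921, minus strand) show a pair that differs only in length. Capitals mark the bases that the annotated copy lacks.
mt-Co2: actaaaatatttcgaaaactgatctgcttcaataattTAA
Gm28661: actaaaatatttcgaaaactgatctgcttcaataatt

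The deposited counts divided each of these pairs unevenly. Gm28661 took 88.6% to 92.7% of the counts it shared with mt-Co2, the second subunit of cytochrome c oxidase, across the 6 libraries. Gm28437 took 82.2% to 90.6% of those shared with mt-Co3, and Gm10925 took 77.8% to 92.2% of those shared with mt-Atp6. For these 3 genes most counts of the sequence therefore stood under the nuclear name. Gm10222 took 31.7% to 67.1% with mt-Nd4l, Gm29216 took 3.13% to 7.16% with mt-Co1, and Gm28439 took 0.357% to 1.02% with mt-Nd4. Gm29216 aligned to only 483 of the 1545 bases of mt-Co1, and Gm28439 to 876 of the 1378 bases of mt-Nd4. The counts of these pairs thus include reads from bases that the copy does not hold, so their low percentages do not show how ambiguous reads were divided.

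The pair of mt-Nd3 and Gm28438 was among those divided differently in the 2 groups. Gm28438 took 18.3%, 31.7% and 34.5% of the shared counts in heterozygous lines 6, 23 and 34 and 52.8%, 45.7% and 54.8% in LOH lines 6, 23 and 34. Every LOH library lay above every heterozygous library. The same held for Gm28661 with mt-Co2 and for Gm10925 with mt-Atp6. Gm28661 took 88.6%, 88.6% and 91.1% in the heterozygous and 92.2%, 91.6% and 92.7% in the LOH libraries. Gm10925 took 87.2%, 77.8% and 86.5% in the heterozygous and 92.2%, 88.1% and 89.99% in the LOH libraries. For Gm28437, Gm10222, Gm29216 and Gm28439 the groups overlapped. These differences in share were not tested, and no background for shares was computed. For scale, the groups did not overlap in CPM for 32.8% of all genes tested. The other 10 nuclear matches, 90.7% to 97.6% identical, held at most 35.9 counts in a library and at most 0.265% of a pair. Reads that lie within an aligned stretch and cover no mismatch cannot tell a mitochondrial gene from its copy. Each affected gene is therefore given below both as deposited and with the counts of its copy added, an alternative chosen after seeing the data.

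**Figure D1:**
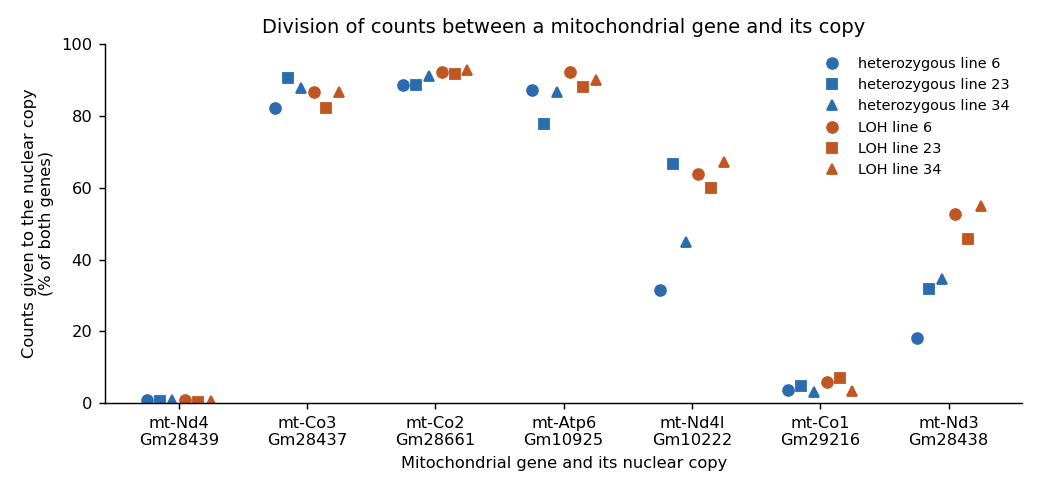
Counts assigned to each of the 7 near-identical nuclear copies, in percent of the copy and its mitochondrial gene together, with 1 point per library (colour: Trp53 group; shape: organoid line). Copies of mt-Co3, mt-Co2 and mt-Atp6 took 77.8% or more in every library. The shares of Gm28438, Gm28661 and Gm10925 were higher in all 3 LOH libraries than in any heterozygous library. The groups overlapped for the other copies, and the differences were not tested.

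None of the 13 messenger RNAs passed the test between LOH and heterozygous libraries (edgeR quasi-likelihood test, Benjamini-Hochberg adjusted p under 0.05 over 14537 genes). Over all genes tested, 757 passed, or 5.21%, with 516 higher and 241 lower in LOH. On TPM, the deposited length-scaled values that add up to the same total in every library, limma called 280 higher and 1631 lower, and the median of all genes was -0.35 in place of 0.06. At an unadjusted p under 0.05, 1 of 13 messenger RNAs passed in edgeR, against 25.3% of all genes. DESeq2, fitted to 27027 genes, had 2 of 13 at that level against 15.8% of all genes, and 0 of 13 after adjustment. Those 27027 include low-count genes that the edgeR filter left out, so the 15.8% is not a like background for the 13. The fitted log2 fold change was above 0 for 11 of 13 and ranged from -0.38 (mt-Nd3) to 0.78 (mt-Nd2), with a median of 0.62. The 6 messenger RNAs without a near-identical copy had a median of 0.64 and the 7 with one a median of 0.23. With the copies added, all 13 were above 0 and the median was 0.63.

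The libraries did not sort by genotype. In 10 of the 13 messenger RNAs the 3 highest libraries were heterozygous line 6, LOH line 23 and LOH line 34, and the same number held with the copies added. The highest single library was LOH line 34 for 7 messenger RNAs, LOH line 23 for 3, heterozygous line 23 for 2 and heterozygous line 6 for 1. The highest library exceeded the lowest 1.68-fold (mt-Nd3) to 3.27-fold (mt-Cytb). In CPM the groups did not overlap for 2 of 13, mt-Atp8 and mt-Nd3, against 32.8% of all genes tested. With the copies added only mt-Atp8 of the 13 remained without overlap.

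**Figure D2:**
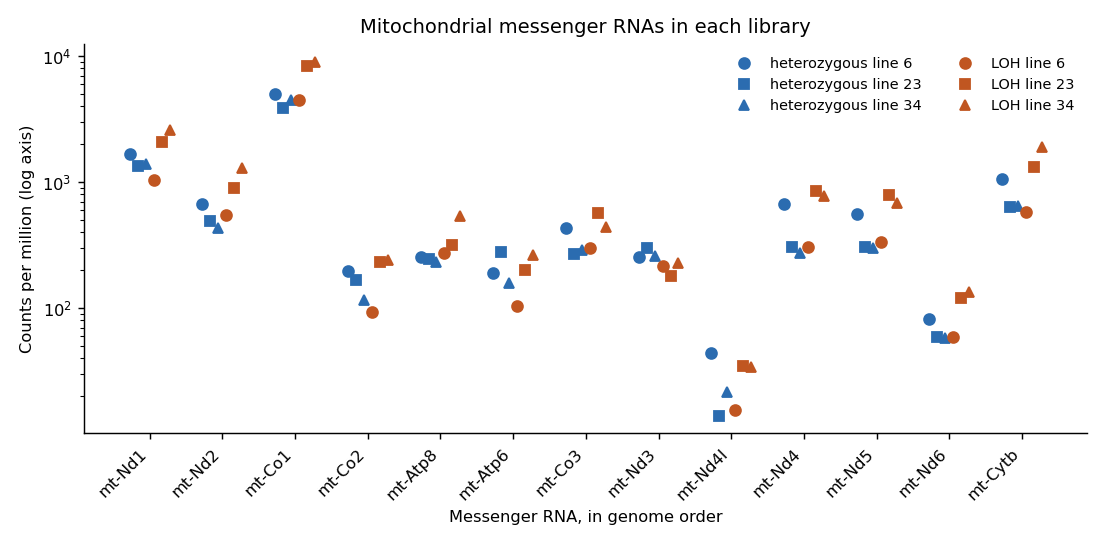
CPM of the 13 messenger RNAs as deposited, in genome order on a log axis, with 1 point per library (colour: Trp53 group; shape: organoid line). Heterozygous line 6 lies with LOH lines 23 and 34 above the other 3 libraries for 10 of the 13.

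Complex I, the NADH dehydrogenase that passes electrons to ubiquinone, has 7 subunits encoded here. mt-Nd1 (chrM:2751-3707), a membrane-arm subunit next to the ubiquinone site, had 1682, 1353 and 1384 CPM in heterozygous lines 6, 23 and 34 and 1037, 2092 and 2594 CPM in LOH lines 6, 23 and 34. The LOH libraries held both the lowest and the highest value, and the log2 fold change was 0.37 (edgeR adjusted p = 0.511, SE 0.33). mt-Nd2 (chrM:3914-4951), one of the proton-pumping subunits of the membrane arm, had 671, 492 and 432 CPM in the heterozygous and 552, 893 and 1294 CPM in the LOH libraries. Its log2 fold change of 0.78 (edgeR adjusted p = 0.204, SE 0.34) was the highest fitted for the 13, and its groups overlapped through line 6.

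mt-Nd4 and mt-Nd5 encode the antiporter-like proton pumps at the far end of the membrane arm. mt-Nd4 (chrM:10167-11544) had 665, 303 and 274 CPM in the heterozygous and 307, 845 and 771 CPM in the LOH libraries of lines 6, 23 and 34. mt-Nd5 (chrM:11742-13565) had 561, 307 and 299 CPM in the heterozygous and 336, 784 and 678 CPM in the LOH libraries. Both genes split the libraries alike, with heterozygous line 6 among the high ones and LOH line 6 among the low ones. The log2 fold changes were 0.63 (edgeR adjusted p = 0.442, SE 0.48) for mt-Nd4 and 0.62 (edgeR adjusted p = 0.351, SE 0.39) for mt-Nd5.

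mt-Nd6 (chrM:13552-14070, minus strand) is the only messenger RNA read from the other strand. It had 81.3, 59.4 and 58.1 CPM in the heterozygous and 59.1, 119 and 133 CPM in the LOH libraries, a log2 fold change of 0.65 (edgeR adjusted p = 0.263, SE 0.33). Its order of libraries was close to that of its neighbours on the plus strand. Its last 14 bases lie opposite the last 14 of mt-Nd5 (chrM:13552-13565), shown here on each gene's own strand.
mt-Nd5: ttaatctcgagtaa
mt-Nd6: ttactcgagattaa
The library kit keeps strand, but whether the counting used it is not given in the sources used here. Without it, reads of mt-Nd6 and of precursor RNA opposite to it could not be told apart.

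mt-Nd3 and mt-Nd4l, small subunits of the membrane arm, were the complex I genes most affected by a copy. As deposited, mt-Nd3 (chrM:9459-9806) had 253, 302 and 258 CPM in the heterozygous and 216, 180 and 229 CPM in the LOH libraries, with a log2 fold change of -0.38 (edgeR adjusted p = 0.235, SE 0.18). It was the only messenger RNA below the heterozygous library in all 3 lines, with log2 ratios of -0.23, -0.74 and -0.17. Its copy Gm28438 had 56.7, 140.1 and 136 CPM in the heterozygous and 241, 152 and 277 CPM in the LOH libraries, a log2 fold change of 1.01 (edgeR adjusted p = 0.165, SE 0.39). With both added, mt-Nd3 had a log2 fold change of 0.18 (edgeR adjusted p = 0.658, SE 0.23), and the ratios were 0.56, -0.41 and 0.36 in lines 6, 23 and 34. The sign of mt-Nd3 thus depended on which of the 2 names received the reads.

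mt-Nd4l (chrM:9877-10173) had 43.9, 13.9 and 21.7 CPM in the heterozygous and 15.5, 34.7 and 34.1 CPM in the LOH libraries, with heterozygous line 6 the highest of the 6. The log2 fold change was 0.08 (edgeR adjusted p = 0.932, SE 0.48) as deposited and 0.68 (edgeR adjusted p = 0.286, SE 0.36) with Gm10222 added. Both as deposited and with the copy added, LOH lines 23 and 34 and heterozygous line 6 were its highest libraries. The same libraries were highest for mt-Nd4, whose reading frame it overlaps by 7 bases.

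Complex III, which passes electrons from ubiquinol to cytochrome c, has a single subunit encoded here. mt-Cytb (chrM:14145-15288), the cytochrome b that holds both ubiquinone sites, had 1058, 629 and 652 CPM in the heterozygous and 584, 1318 and 1910 CPM in the LOH libraries of lines 6, 23 and 34. LOH line 6 was the lowest of the 6 libraries and LOH line 34 the highest. The log2 fold change was 0.70 (edgeR adjusted p = 0.350, SE 0.44).

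Complex IV, cytochrome c oxidase, reduces oxygen with the metal centres held by mt-Co1 and mt-Co2. mt-Co1 (chrM:5328-6872) had 5036, 3902 and 4472 CPM in the heterozygous and 4498, 8362 and 9052 CPM in the LOH libraries. It took 45.3% to 53.7% of all counts on the 13 messenger RNAs, and LOH lines 23 and 34 stood above the other 4 libraries. Its log2 fold change of 0.71 (SE 0.29) had the smallest p of the 13 (edgeR, unadjusted p = 0.0458, adjusted p = 0.188), and with Gm29216 added the change was 0.73 (edgeR adjusted p = 0.173, SE 0.29).

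mt-Co2 (chrM:7013-7696), which receives electrons from cytochrome c, had 198, 167 and 116 CPM in the heterozygous and 93.4, 231 and 241 CPM in the LOH libraries as deposited. With Gm28661 added it had 1729.9, 1468 and 1299 CPM in the heterozygous and 1191, 2734 and 3307 CPM in the LOH libraries. Both counts put LOH line 6 lowest and LOH lines 23 and 34 highest. The log2 fold change was 0.23 (edgeR adjusted p = 0.733, SE 0.39) as deposited and 0.69 (edgeR adjusted p = 0.291, SE 0.37) with the copy. mt-Co3 (chrM:8607-9390), a structural subunit, had 432, 267 and 290.0 CPM in the heterozygous and 299, 568 and 442 CPM in the LOH libraries as deposited, a log2 fold change of 0.40 (edgeR adjusted p = 0.428, SE 0.30). With Gm28437 added the values lay closer together, from 2220.3 to 3295 CPM, and the change was 0.19 (edgeR adjusted p = 0.599, SE 0.22).

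Complex V, the ATP synthase, has mt-Atp6, which forms part of the proton channel, and the small membrane protein mt-Atp8. Their reading frames share 43 bases in different phases (chrM:7927-7969, plus strand), so a read within them belongs to both genes. The shared bases run from the start codon of mt-Atp6 to the stop codon of mt-Atp8.
mt-Atp8/mt-Atp6: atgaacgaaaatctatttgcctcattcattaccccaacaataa
mt-Atp8 (chrM:7766-7969) had 255, 246 and 231 CPM in the heterozygous and 276, 314 and 541 CPM in the LOH libraries. In CPM it was the only messenger RNA above the heterozygous library in all 3 lines, with log2 ratios of 0.11, 0.35 and 1.23. Its log2 fold change was 0.63 (edgeR adjusted p = 0.209, SE 0.28). On TPM it lay below the heterozygous library in line 6 (5038 to 4603) and line 23 (4822 to 4770), and the groups overlapped. mt-Atp6 (chrM:7927-8607) had 192, 276 and 159 CPM in the heterozygous and 103, 200.4 and 264 CPM in the LOH libraries, a log2 fold change of -0.14 (edgeR adjusted p = 0.835, SE 0.37). With Gm10925 added it had 1492, 1247 and 1179.8 CPM in the heterozygous and 1334, 1687 and 2633 CPM in the LOH libraries. Its direction turned with the copy, to a log2 fold change of 0.53 (edgeR adjusted p = 0.282, SE 0.28).

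Within the lines the messenger RNAs differed in opposite directions. In line 6, 1 of 13 was higher in the LOH library (49.3% of all genes), with a median log2 ratio of -0.70 and a range of -1.49 to 0.11. In line 23, 11 of 13 were higher (51.4% of all genes), with a median of 1.01. In line 34, 12 of 13 were higher (52.4% of all genes), with a median of 1.05. With the copies added, 2, 12 and 13 of 13 were higher and the medians were -0.46, 0.90 and 1.19. There is 1 library per genotype in a line, so these ratios have no replicate check.

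**Figure D3:**
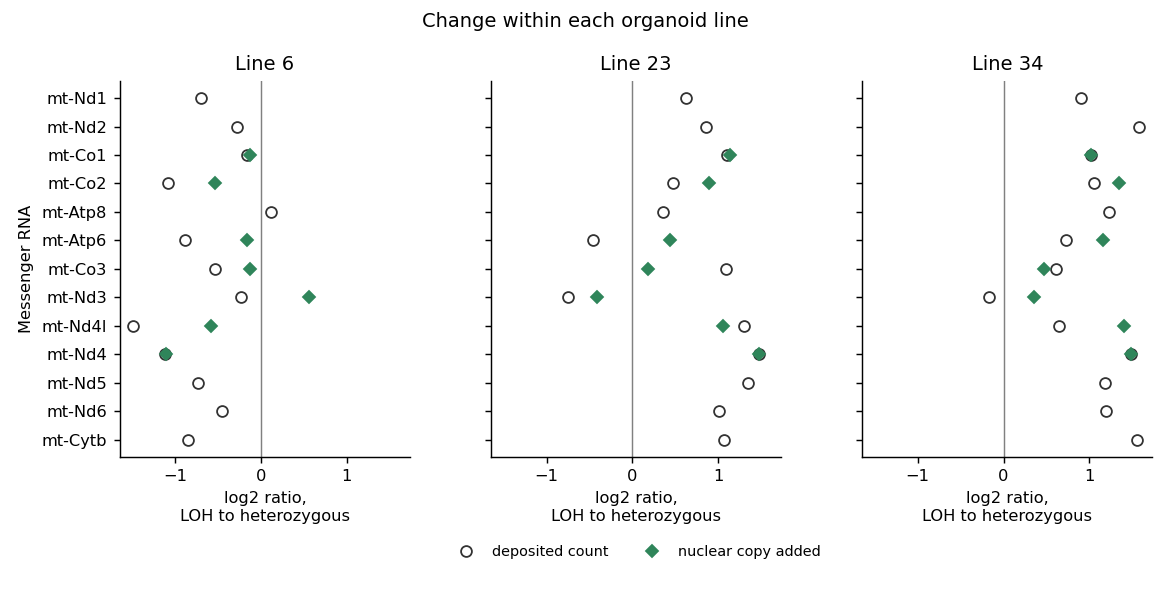
Log2 ratio of LOH to heterozygous CPM for each messenger RNA in each organoid line, as deposited (open circles) and with the near-identical nuclear copy added (diamonds, 7 genes). Most points lie below 0 in line 6, where 1 of 13 deposited ratios is above 0, and above 0 in lines 23 and 34.

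The blocked fit, with organoid line as a term, called none of the 13, none of them at an unadjusted p under 0.05 either (median 0.56), and 1.47% of all genes. Leaving line 6 out changed the calls. Without it, edgeR called 5 of 13 higher against 5.72% of all genes (adjusted p = 0.0467 for mt-Co1, 0.0389 for mt-Nd4, 0.0404 for mt-Nd5, 0.0406 for mt-Nd6 and 0.0479 for mt-Cytb), with log2 fold changes of 1.03 to 1.46. Without line 23 and without line 34 it called none of the 13, and none of all 14805 and 14348 genes tested (0.0%), so those fits say nothing about the members. Without LOH line 6 alone it called mt-Co1 (0.92, adjusted p = 0.0365) and mt-Nd6 (0.89, adjusted p = 0.0449), both higher, against 7.5% of all genes. On log2(TPM + 1), limma called mt-Nd3 as deposited (-0.75, adjusted p = 0.0417), against 13.7% of all genes called lower. On that scale mt-Atp6 (-0.59), mt-Nd1 (-0.11), mt-Co2 (-0.24), mt-Nd4l (-0.21), mt-Rnr1 (-0.069) and mt-Rnr2 (-0.094) also lay below 0, beside the median of -0.35 for all genes.

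Levels could be compared between genes only per length, as the mean ± SD over all 6 libraries of the TPM of each gene, scaled up by the counts of its copy over the gene's own effective length. mt-Atp8 stood first at 5171 ± 1214 TPM, followed by mt-Co1 at 4270.2 ± 1101 TPM, mt-Co3 at 4256 ± 550.2 TPM, mt-Co2 at 3534 ± 1124 TPM and mt-Atp6 at 2934 ± 673 TPM. mt-Co1 exceeded mt-Co3 in 2 of 6 libraries and mt-Co3 exceeded mt-Co2 in 4, so these 3 were not separated. mt-Atp8 exceeded mt-Co1, and mt-Co2 exceeded mt-Atp6, in 5 of 6 libraries. The value of mt-Atp8 divides by a short effective length and is the least certain of them. mt-Nd3 followed at 2062 ± 330.0 TPM and mt-Nd1 at 2052 ± 544 TPM, which were not separated (3 of 6 libraries). The genes at the lower end were mt-Cytb at 995 ± 405 TPM, mt-Nd2 at 783 ± 254 TPM, mt-Nd4 at 424 ± 203 TPM, mt-Nd4l at 421 ± 139 TPM, mt-Nd5 at 288 ± 112 TPM and mt-Nd6 at 225 ± 65.0 TPM. Of these, mt-Nd4 and mt-Nd4l were not separated, with mt-Nd4 above in 2 of 6 libraries. With the copies added, all subunits of complexes IV and V thus had higher mean levels than any subunit of complex I. As deposited this did not hold. There mt-Co3 had 599 ± 182 TPM, mt-Atp6 374 ± 125 TPM and mt-Co2 324 ± 108 TPM. These lay below mt-Nd1 at 2052 ± 544 TPM and mt-Nd3 at 1249 ± 365 TPM.

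The ribosomal RNAs mt-Rnr1 and mt-Rnr2 build the small and the large subunit of the mitochondrial ribosome and lie at the start of the plus-strand precursors. mt-Rnr1 (chrM:70-1024) had 24906, 11779.5 and 10616 CPM in the heterozygous and 13171, 29657 and 15460.1 CPM in the LOH libraries of lines 6, 23 and 34. Its 2 highest libraries, heterozygous line 6 and LOH line 23, came from different groups, and the log2 fold change was 0.30 (edgeR adjusted p = 0.697, SE 0.44). mt-Rnr2 (chrM:1094-2675) had 97609, 131936 and 106494 CPM in the heterozygous and 98695, 147281 and 174628 CPM in the LOH libraries, a log2 fold change of 0.32 (edgeR adjusted p = 0.489, SE 0.28). LOH lines 23 and 34 were its highest libraries, and the groups overlapped for both ribosomal RNAs.

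The balance of the 2 ribosomal RNAs varied more between libraries than between groups. The log2 ratio of mt-Rnr1 to mt-Rnr2 counts was -1.97, -3.49 and -3.33 in heterozygous lines 6, 23 and 34 and -2.91, -2.31 and -3.50 in LOH lines 6, 23 and 34. Heterozygous line 6 and LOH line 23 held the highest ratios. The groups differed by 0.02 (exact permutation test, two-sided, p = 1.0), and this ratio was chosen after its values were seen. The labels name a total RNA library kit and do not describe a removal of ribosomal RNA, whose part in these values was not tested.

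The 22 transfer RNA genes, which carry amino acids to the mitochondrial ribosome, had 0 counts in all 6 libraries and could not be tested. They are 59 to 75 bases long, 14 on the plus and 8 on the minus strand, and the deposited effective length of each was 0. The quantifier therefore could assign them no read, and a count of 0 gives no upper limit for them. The transfer RNA for phenylalanine, mt-Tf (chrM:1-68, plus strand), is shown whole to give the scale.
mt-Tf: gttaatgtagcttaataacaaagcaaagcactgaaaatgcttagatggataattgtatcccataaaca

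Summed over each class, the mitochondrial share of the library differed by less than its spread between libraries. The 13 messenger RNAs took 1.31%, 0.819% and 0.950% of all counts in heterozygous lines 6, 23 and 34 and 0.845%, 1.51% and 1.48% in LOH lines 6, 23 and 34. Heterozygous line 6 lay with LOH lines 23 and 34, and the group means were 1.03% ± 0.254 (SD, n = 3) and 1.28% ± 0.376 (SD, n = 3; exact permutation test, two-sided, p = 0.3). The ribosomal RNAs took 14.4%, 14.2% and 12.9% in the heterozygous and 11.3%, 16.8% and 15.5% in the LOH libraries (exact permutation p = 0.8). All mitochondrial genes together took 12.1% to 18.3% of the counts, both extremes in LOH libraries (exact permutation p = 0.7). With the copies added, the messenger RNA share was 1.91%, 1.33% and 1.45% in the heterozygous and 1.33%, 2.22% and 2.21% in the LOH libraries (exact permutation p = 0.4), again with heterozygous line 6 beside LOH lines 23 and 34. Taken of the counts without transcripts that resemble ribosomal RNA, the LOH minus heterozygous difference was 0.450 percentage points for the messenger RNAs (exact permutation p = 0.3) in place of 0.253, and 2.42 for the ribosomal RNAs (exact permutation p = 0.4) in place of 0.701. The Wilson 95% interval of the messenger RNA share covers counting error only. It was 0.815% to 0.824% in heterozygous line 23 and 0.841% to 0.850% in LOH line 6, far narrower than the spread between libraries.

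**Figure D4:**
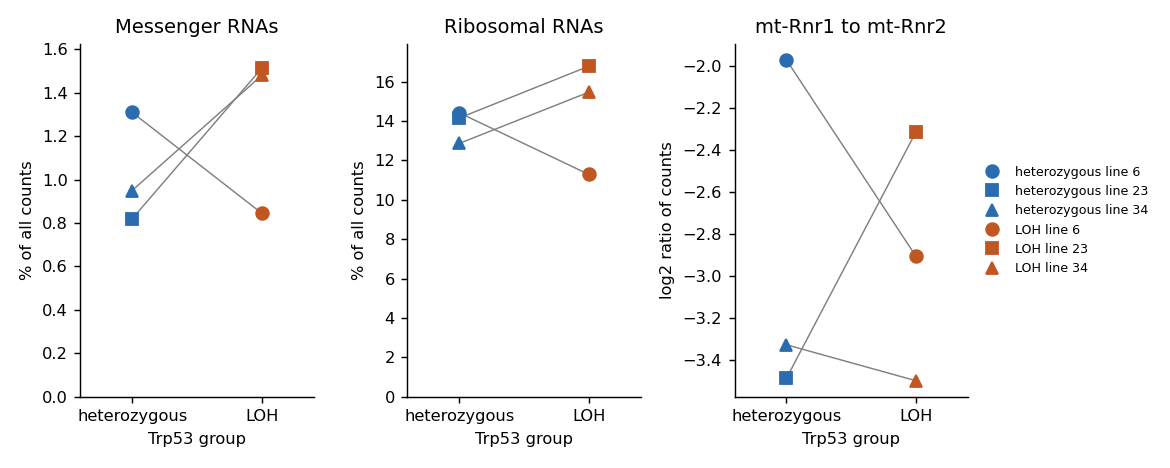
Percent of all counts on the 13 messenger RNAs and on the 2 ribosomal RNAs, and the log2 ratio of mt-Rnr1 to mt-Rnr2, with 1 point per library and a line joining the libraries of 1 organoid line. Both shares were lower in LOH than in heterozygous in line 6 and higher in LOH in lines 23 and 34.

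Ratios within a library need no scaling between libraries. The log2 ratio of messenger to ribosomal RNA was -3.46, -4.11 and -3.76 in the heterozygous and -3.74, -3.47 and -3.39 in the LOH libraries, a difference of 0.24 (exact permutation p = 0.3). The log2 ratio of mt-Nd6 to the 12 messenger RNAs of the other strand stayed within -7.21 to -7.05 in all 6 libraries, with a difference of 0.05 between the groups (exact permutation p = 0.4). Of the ratios computed it varied least. The counts under mt-Nd6 and those of the other 12 thus kept nearly the same proportion in every library, with the limit given above on the strand used in counting. The log2 ratio of mitochondrial to nuclear-encoded respiratory chain messenger RNA was 0.84, 0.05 and 0.19 in the heterozygous and 0.15, 1.50 and 1.44 in the LOH libraries, a difference of 0.67 (exact permutation p = 0.3). Here too LOH lines 23 and 34 and heterozygous line 6 were the 3 highest. With the copies added these ratios were 1.39, 0.75 and 0.81 in the heterozygous and 0.80, 2.05 and 2.02 in the LOH libraries, a difference of 0.64 (exact permutation p = 0.3). Adding the copies likewise shifted the messenger to ribosomal ratios, to -3.41 to -2.81, and the mt-Nd6 ratios, to -7.82 to -7.61, with group differences of 0.22 and 0.07 (exact permutation p = 0.3 and 0.5). Adjusted over the 7 shares and ratios tested, p was 0.7 or more, and 3 libraries against 3 cannot give a p below 0.1.

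The nuclear genes that transcribe, process and translate mitochondrial RNA are given as lists, beside the background of 3.55% of all genes called higher and 1.66% called lower. Of 23 genes for transcription and replication of mitochondrial DNA, 1 rose and 1 fell in LOH, with a median log2 fold change of -0.35. Primpol, a primase-polymerase that restarts stalled replication, had 7.71, 8.53 and 8.71 CPM in the heterozygous and 14.9, 18.4 and 16.8 CPM in the LOH libraries (log2 fold change 1.01, SE 0.21, edgeR adjusted p = 0.0410). Lig3, the DNA ligase that serves mitochondria, had 68.1, 79.1 and 70.3 CPM in the heterozygous and 45.4, 39.2 and 36.8 CPM in the LOH libraries (log2 fold change -0.84, SE 0.18, edgeR adjusted p = 0.0446). Neither passed in the blocked fit (edgeR adjusted p = 0.126 for Primpol and 0.149 for Lig3), although both differed in the same direction in all 3 lines. Over the 22 alternatives run for each, Primpol was called in 9 and Lig3 in 12.

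Polrmt, the mitochondrial RNA polymerase, had 30.9, 26.7 and 27.8 CPM in the heterozygous and 18.9, 15.1 and 12.7 CPM in the LOH libraries. Every LOH value was below every heterozygous value, and the log2 fold change of -0.87 (SE 0.21) missed the threshold (edgeR adjusted p = 0.0625). Tfam, which packages mitochondrial DNA and opens its promoters, had 41.4, 45.9 and 48.0 CPM in the heterozygous and 26.9, 36.2 and 39.2 CPM in the LOH libraries (log2 fold change -0.40, edgeR adjusted p = 0.263). Lrpprc had 91.3, 104.5 and 108.7 CPM in the heterozygous and 86.0, 56.8 and 52.6 CPM in the LOH libraries (log2 fold change -0.64, edgeR adjusted p = 0.147). All 3 genes had a lower CPM in every LOH library than in any heterozygous one. The groups did not overlap for 32.8% of all genes tested, and none of the 3 passed the test. They were lower in LOH in line 6, where most messenger RNAs were lower, and in lines 23 and 34, where most were higher. Tfb2m, the transcription factor that melts the promoter (-0.27, edgeR adjusted p = 0.565), and Slirp, the partner of Lrpprc (0.16, edgeR adjusted p = 0.592), overlapped between the groups. Ppargc1a, a coactivator of mitochondrial biogenesis, was near the limit of detection, with 13, 1 and 15 counts in the heterozygous and 12, 82 and 35 counts in the LOH libraries (log2 fold change 2.34, SE 0.75, edgeR adjusted p = 0.113). Scaled for library size it had 0.434, 0.0742 and 0.501 CPM in the heterozygous and 0.699, 3.10 and 1.63 CPM in the LOH libraries. Its groups thus did not overlap, and it was higher in LOH.

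In the other lists few genes passed. None of the 38 tested genes for processing, modification and decay of mitochondrial RNA was called, with 12 at an unadjusted p under 0.05 (25.3% of all genes) and a median log2 fold change of -0.38. None of 17 regulators of biogenesis was called (5 unadjusted, median 0.08). Of 78 mitochondrial ribosomal protein genes 1 fell, Mrpl36 of the large subunit, from 25.6, 33.0 and 27.0 CPM to 16.8, 11.6 and 10.2 CPM (log2 fold change -1.14, SE 0.25, edgeR adjusted p = 0.0490, and 0.125 in the blocked fit; called in 12 of 22 alternatives). The fitted change was below 0 for 69 of the 78, with 21 at an unadjusted p under 0.05 and a median of -0.44. None of 17 mitochondrial aminoacyl-tRNA synthetase genes was called (5 unadjusted, median -0.47), and Lars2 among them holds reads that resemble ribosomal RNA. None of 78 tested nuclear-encoded respiratory chain subunits was called (11 unadjusted, median -0.06). In the lists for mitochondrial expression together, edgeR called 3 genes (1.74% of those tested), 1 higher and 2 lower. DESeq2 called 26 (15.1%), 5 higher and 21 lower, against 8.37% of the 27027 genes it was fitted to, 5.25% higher and 3.12% lower.

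**Figure D5:**
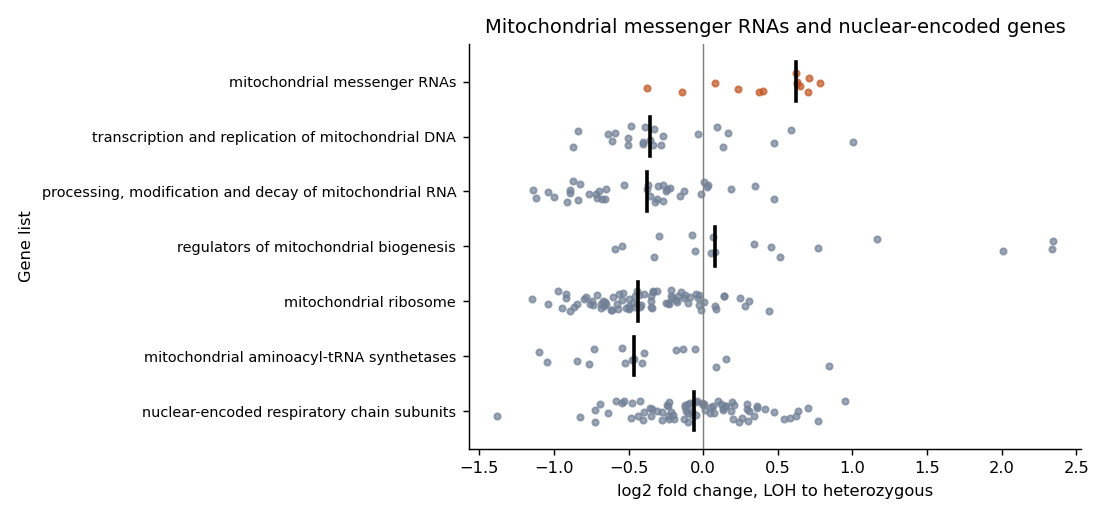
Log2 fold change of LOH against heterozygous for the 13 mitochondrial messenger RNAs and for the genes of 6 nuclear lists, with 1 point per gene and a bar at the median. The messenger RNAs have a median of 0.62 and the mitochondrial ribosome a median of -0.44.

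The lists divided the lines differently from the messenger RNAs. The median log2 ratio of the mitochondrial ribosome was 0.07, -0.84 and -0.60 in lines 6, 23 and 34, where the 13 messenger RNAs had -0.70, 1.01 and 1.05. The nuclear-encoded respiratory chain had 0.32, -0.41 and -0.11, and the processing genes -0.12, -0.65 and -0.77. In lines 23 and 34 the medians of these lists were below 0 and those of the mitochondrial messenger RNAs above it, while line 6 did not show this. The regulators of biogenesis were an exception, with medians of 0.33 and 0.47 in lines 23 and 34. On the TPM scale the list medians were lower throughout, -0.84 for the mitochondrial ribosome and -0.47 for the nuclear-encoded respiratory chain, beside 0.20 for the messenger RNAs and -0.35 for all genes. The share of transcripts that resemble ribosomal RNA was also highest in LOH lines 6 and 34 (23.6% and 24.9%). A further fit left out a part of those transcripts, with Gm26917, Gm42418, AY036118 and Lars2 among the ones removed. In it the median of the 13 messenger RNAs was 0.58 and edgeR called 756 genes. Of the lists for mitochondrial expression it called 1 higher and 3 lower.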

How the data were processed

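Total RNA from 6 organoid cultures was sequenced from stranded libraries, per the labels' protocols. Per the submitters' processing notes the authors used FastQC 0.11.5, STAR 2.5.2b, RSEM 1.3.0 and DESeq2 1.44.0 on GRCm38.p5; the file names give GENCODE release 16. The deposited files hold expected counts per gene, TPM, effective lengths and a normalized table, a signal that equals the truncated counts divided by 1 size factor per library. The lengths of all 37 mitochondrial genes equal those of release 21, which gave coordinates and sequences. Expected counts were rounded and tested with edgeR 4.0.16 (R 4.3.3; filterByExpr, TMM, quasi-likelihood test, Benjamini-Hochberg, threshold 0.05) without a block; 14537 genes passed the filter, all 15 members among them. CPM use TMM-scaled totals. In the gene lists the text names the genes past the threshold (at most 4 in each direction) and 6 regulators fixed by name. Nuclear copies were found with blastn 2.17.0. Shares and ratios were compared by exact permutation over libraries. Alternatives were other scalings and filters, DESeq2 1.42.0, limma 3.58.1 on log2(TPM + 1) and log2(TPM + 0.1), an organoid-line block, and each library or line left out.

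Lines pair the groups by their titles: same-line deviations from the group means correlated at -0.30, 0.01 and 0.29 in lines 6, 23 and 34. Between different lines the correlations ran from -0.39 (heterozygous line 34 with LOH line 23) to 0.30 (heterozygous line 6 with LOH line 23). Expression therefore did not set the same-line pairs apart, and the pairing rests on the titles. On simulated counts (14137 genes) the test recovered 67 of 67 genes changed 16-fold, 60 of 67 changed 4-fold and 8 of 66 changed 2-fold, with 7 false calls. The changed genes were drawn only from those above a set mean expression. Their simulated spread followed expression level and held no organoid-line effect. The recovery therefore does not describe low-count genes or genes with the library pattern seen here. The members and lists were chosen with earlier results of these data known.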

Additional observations from a re-analysis of the deposited data

Results flagged for a closer look

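Of 23 results looked at by organoid line, 20 had the LOH library above the heterozygous one in at least 1 line and below it in another. With 1 library per genotype in each line, the difference between lines was not tested. The gap from the lowest to the highest line, in log2 units of the LOH to heterozygous ratio, was 2.25 for mt-Rnr1, 1.60 for mt-Nd1, 1.86 for mt-Nd2, 1.26 for mt-Co1, 2.13 for mt-Co2, 1.62 for mt-Atp6 and 1.62 for mt-Co3. It was 2.80 for mt-Nd4l, 2.61 for mt-Nd4, 2.09 for mt-Nd5, 1.65 for mt-Nd6 and 2.41 for mt-Cytb, so that 12 of the 15 members were concerned. The median of the 13 messenger RNAs spanned 1.75.

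The share of counts spanned 1.16 percentage points for the messenger RNAs, 5.76 for the ribosomal RNAs and 6.92 for all mitochondrial genes. The log2 ratios spanned 0.92 for messenger to ribosomal RNA, 0.17 for mt-Nd6 to the other messenger RNAs, 2.14 for mitochondrial to nuclear-encoded respiratory chain messenger RNA and 2.11 for mt-Rnr1 to mt-Rnr2. The 3 members outside this pattern in CPM were mt-Atp8 and mt-Rnr2, higher in LOH in every line, and mt-Nd3, lower in every line as deposited. The log2 ratio of mt-Rnr2 in line 6 was only 0.016. On TPM both mt-Atp8 and mt-Rnr2 were lower in LOH in lines 6 and 23.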

How the results depend on the processing

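Of 328 single-gene values under alternatives, 292 kept direction and call, 9 passed only in the alternative and 27 turned. The count of messenger RNAs called was 0 in the alternatives except limma on TPM (1 and 1, with either pseudocount) and 0 to 5 with a library or line left out; for the ribosomal RNAs it was 0 to 0. Over all genes the replicate block called 213 (213 with the copies joined), DESeq2 2262 and limma 1911 and 1753, and leave-one-out counts ran from 0 to 2449. It was 0 without heterozygous line 6, 23 or 34 (2966, 2637 and 2272 at an unadjusted p under 0.05), without line 23 (2253) and without line 34 (2097) and 451 without LOH line 23, but 1422 without line 6 as a whole. Of the nuclear genes for mitochondrial expression, upper quartile scaling called 1, the replicate block 0 (0 with copies joined), DESeq2 26, limma 52 and 48, and leave-one-out 0 to 56. The replicate block changed no call of a member, and took 3 calls (Primpol, Lig3 and Mrpl36) from the nuclear lists.

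On TPM, limma turned mt-Rnr1 (-0.069, -0.069), mt-Rnr2 (-0.094, -0.094), mt-Nd1 (-0.11, -0.11), mt-Co2 (-0.24, -0.24) and mt-Nd4l (-0.21, -0.21), and the differences in TPM share were -0.685 for ribosomal and -0.562 for all mitochondrial genes. With copies joined, mt-Atp6 turned to 0.53 and mt-Nd3 to 0.18 (0.48 and 0.17 with the replicate block). Leave-one-out ranges were 0.23 to 0.91 for the median, -0.31 to 0.98 for mt-Rnr1, -0.17 to 0.71 for mt-Co2, -0.62 to 0.12 for mt-Atp6, -0.40 to 0.91 for mt-Nd4l, -0.435 to 2.62 for the ribosomal share, -0.299 to 3.23 for all mitochondrial genes and -0.55 to 0.50 for mt-Rnr1 to mt-Rnr2. The cause of these turns was not tested. The transfer RNAs, at 0, gave no value, nor did the ribosomal RNAs in the protein-coding table, which does not hold them.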
